A study of Mus musculus with 2 samples.

Results

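The 10 genes described here encode secreted or surface proteins of the stomach lining: the gastrokines Gkn1, Gkn2 and Gkn3, the trefoil factors Tff1, Tff2 and Tff3, the mucins Muc1 and Muc6, and the pepsinogens Pgc and Pga5. They were chosen by name and family, with earlier results of these data known. They matched 11 of 41174 non-control probes on a mouse Agilent array. Muc1 had 2 probes and each other gene had 1. The Gkn2 probe carries the older name 1810036H07Rik and was matched through its transcript accession, and the Gkn3 probe carries 1190003M12Rik, a synonym of that gene. All 10 genes were among 15264 genes bright enough to test.

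The cells were GIF-5, a mouse gastric epithelial line of genotype Runx3-/-p53-/-, which both fractions share, grown in DMEM with bovine serum. An antibody against CD133 was used to sort a suspension of them into CD133-positive and CD133-negative cells, and Trizol RNA of both fractions was labelled and hybridised together. There were 2 arrays, each with CD133-positive RNA in Cy3 and CD133-negative RNA in Cy5, so dye and fraction cannot be told apart. The labels call the arrays biological replicates without saying whether cultures or sorts were separate, so p-values measure a spread that may be technical. The question set by the design is which transcripts differ between the fractions, in a cultured line of that genotype and not in stomach tissue.

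Gastrokines are small secreted proteins with a BRICHOS domain, made in the stomach by mucous cells of the surface and glands. Trefoil factors are compact secreted peptides released together with mucins, and they are known for roles in mucosal repair. Muc6 is a gel-forming mucin of gland mucous cells, while Muc1 is a mucin anchored in the cell membrane. Pgc and Pga5 are precursors of pepsins, the acid proteases of the stomach, and are best known from chief cells.

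Of the 10 genes, 5 were called higher in CD133-positive cells and 0 were called lower, where a call is a limma adjusted p under 0.05 over all tested genes. The called genes were Gkn2, Tff1, Tff3, Pga5 and Muc1, so each of the 4 families had a called member. Over all tested genes, 1.40% were called higher, 0.275% lower and 1.68% in either direction. At an unadjusted p under 0.05 there were 7 of the 10 genes, all of them higher, against 27.9% of all tested genes in either direction and 11.9% as higher. By size alone, 6 of the 10 were at least 2-fold higher on both arrays, against 2.50% of all tested genes, and 0 were at least 2-fold lower on both, against 2.12%. The ratio was above 0 on both arrays in 9 of the 10, against 32.6% of all tested genes. The median log2 ratio of CD133-positive over CD133-negative cells was 2.24 for the 10 genes and -0.03 for all tested genes. Because the 10 genes were chosen with earlier results of these data known, these comparisons are a description only. Without moderation of the variance, limma called 0 of the 10 and 0 of all genes, so the calls rest on the spread shared across genes.

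The gastrokines differed in how far apart the fractions were. Gkn2 had normalised log2 intensities of 16.38 on array 1 and 15.23 on array 2 in CD133-positive cells, against 10.66 and 9.75 in CD133-negative cells. Both CD133-positive values lay far above both CD133-negative values. Gkn2 was higher by 5.60 ± 0.15 on the log2 scale (SE, n = 2), a ratio of 48.4-fold with a 95% interval of 36.1 to 64.8 (limma adjusted p = 0.0095). By mean ratio it ranked 6 among the 15264 tested genes.

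Gkn3 had log2 intensities of 8.79 and 7.59 in CD133-positive cells, against 6.69 and 6.64 in CD133-negative cells. Its fractions did not overlap, a trait whose share over all tested genes was not counted here. The log2 ratio was 2.10 on array 1 and 0.95 on array 2. The mean of 1.53 ± 0.32 did not pass the test (limma adjusted p = 0.094).

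Gkn1 was read close to background, with 133 and 65.8 units of raw brightness in CD133-positive cells, over local backgrounds of 47 and 52.5, against 67.4 and 56.2 in CD133-negative cells. In the CD133-negative fraction its spot failed the flag for well above background on each array, so it entered the test only through the CD133-positive fraction. Its log2 ratio was 1.72 on array 1 and 0.31 on array 2, with a mean of 1.02 ± 0.38 and an interval of -0.06 to 2.10 (limma adjusted p = 0.19). With the CD133-negative value of each array set no lower than the lowest measurable signal, the means over both arrays differed by at least 2.01-fold, a bound that leaves out the spread between arrays. With the processed signals of the authors, which carry no offset, the mean ratio of Gkn1 was 4.22 with an adjusted p of 0.031 in limma.

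The probes of the gastrokines lie next to each other on chromosome 6, at 87420958 to 87421017 for Gkn1, 87454377 to 87454436 for Gkn2 and 87458467 to 87458526 for Gkn3. These are coordinates of the array files, whose genome build is not given in the sources used here, so exon and UTR positions were not assigned. The windows below show the starts of these 3 adjacent genes, which had different ratios. They are RefSeq promoter windows of GRCm38.p6, 250 bases before to 50 after the gene start, 5′ to 3′ on the gene's strand: chr6:87373115-87373414 (+) for Gkn2, chr6:87388886-87389185 (-) for Gkn3 and chr6:87350866-87351165 (-) for Gkn1. Capitals mark exact matches, on either strand, to 3 motifs, none of which overlap each other here. TATAAA is a core promoter element, AGATAA is bound by GATA factors, and TGTGGT is bound by RUNX factors, a family that includes Runx3, which the labels give as deleted. The Runx3 probe was well above background in both fractions, and since its place relative to the deleted part is not known, it does not check the deletion.
Gkn2: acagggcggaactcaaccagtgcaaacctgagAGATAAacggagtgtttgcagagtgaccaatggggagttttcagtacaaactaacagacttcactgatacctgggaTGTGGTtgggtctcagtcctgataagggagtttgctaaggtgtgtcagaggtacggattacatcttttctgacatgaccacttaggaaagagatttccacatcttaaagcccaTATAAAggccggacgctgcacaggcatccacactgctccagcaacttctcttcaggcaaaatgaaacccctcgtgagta
Gkn3: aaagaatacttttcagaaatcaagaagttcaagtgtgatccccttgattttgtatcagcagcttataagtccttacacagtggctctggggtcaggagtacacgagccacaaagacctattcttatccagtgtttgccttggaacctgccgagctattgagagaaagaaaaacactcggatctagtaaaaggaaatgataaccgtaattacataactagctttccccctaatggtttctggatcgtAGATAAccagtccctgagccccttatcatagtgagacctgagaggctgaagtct
Gkn1: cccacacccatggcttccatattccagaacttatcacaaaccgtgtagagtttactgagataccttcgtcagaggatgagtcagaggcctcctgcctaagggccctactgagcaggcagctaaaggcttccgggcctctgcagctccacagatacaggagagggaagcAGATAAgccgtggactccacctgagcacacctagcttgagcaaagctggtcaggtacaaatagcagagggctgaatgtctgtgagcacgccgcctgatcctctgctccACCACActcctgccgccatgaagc

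The Gkn2 window held all 3 motifs, the Gkn1 window held AGATAA and TGTGGT, and the Gkn3 window held AGATAA alone. Among 32851 promoter windows of the same length in the table, 13.6% held TATAAA, 11.2% held AGATAA and 16.8% held TGTGGT. The table also held windows for Muc1, Muc6 and Pgc. TATAAA was present in those of Muc1 and Pgc, and AGATAA in that of Muc6. No window of the 6 genes held TGTTTAC (forkhead), which occurs in 3.65% of all windows. The matches describe these letters only, and called and uncalled genes both hold them.

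The trefoil factors were high in CD133-positive cells on both arrays. Tff1, the trefoil peptide of surface mucous cells, had log2 intensities of 15.39 and 13.33 in CD133-positive cells, against 10.89 and 9.04 in CD133-negative cells. The fractions did not overlap, and the log2 ratios of 4.50 and 4.29 differed little between the arrays. Tff1 was 21.1-fold higher, with an interval of 15.8 to 28 (limma adjusted p = 0.0095).

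Tff3, best known as the trefoil peptide of intestinal goblet cells, had log2 intensities of 13.62 and 11.02 in CD133-positive cells, against 9.15 and 7.07 in CD133-negative cells. Every CD133-positive value was above every CD133-negative value. The mean ratio was 18.5-fold with an interval of 12.8 to 26.7 (limma adjusted p = 0.013). Without the filter on dim probes, which adds genes to the adjustment, Tff3 was not called (limma adjusted p = 0.074). Since Tff1 and Tff3 were read by different probes, their levels are not compared.

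Tff2, the trefoil peptide of gland mucous cells, had log2 intensities of 10.50 and 8.37 in CD133-positive cells, against 7.16 and 6.28 in CD133-negative cells. Its ratio was at least 2-fold on each array, 3.34 and 2.09 on the log2 scale, and the fractions did not overlap. The mean of 2.71 ± 0.35 just missed the threshold (limma adjusted p = 0.063). Under 8 of 14 other settings Tff2 was called, with a limma adjusted p from 0.0072 to 0.53 over all of them. These 8 include the authors' processed signals and their value table, which gave the same ratio, 3.85. They also include median centring over all and over tested probes, which called 66.2% and 26.5% of all tested genes. The trefoil probes lie on chromosome 17, at 29320548 to 29320607 for Tff3, 29337525 to 29338349 for Tff2 and 29356574 to 29356633 for Tff1.

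**Figure D1:**
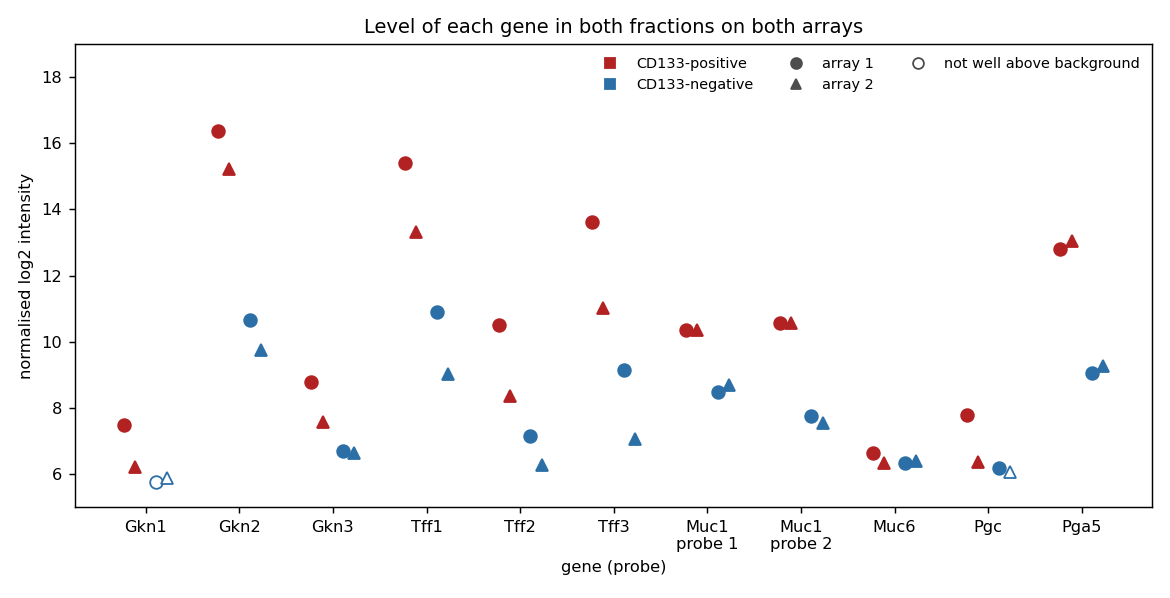
Normalised log2 intensity (y axis) of the 11 probes of the 10 genes (x axis) in CD133-positive cells (red) and CD133-negative cells (blue), with circles for array 1, triangles for array 2 and open symbols for values not well above background. Heights may be compared between fractions of a probe but not between probes. Gkn2, the trefoil factors, Muc1 and Pga5 show separate fractions. So do Gkn3 and, by a small margin, Gkn1 and Pgc, while the fractions of Muc6 lie together.

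The pepsinogens had unequal outcomes. Pga5 had log2 intensities of 12.81 and 13.05 in CD133-positive cells, against 9.05 and 9.28 in CD133-negative cells. The arrays gave nearly the same ratio, 3.76 and 3.78. Pga5 was 13.6-fold higher, with an interval of 10.5 to 17.8 (limma adjusted p = 0.0095). It also had the smallest SD between arrays of the 11 probes, 0.01.

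Pgc was dim. It had log2 intensities of 7.80 and 6.37 in CD133-positive cells, against 6.20 and 6.07 in CD133-negative cells, where it was well above background on array 1 alone. The log2 ratio was 1.60 on array 1 and 0.30 on array 2, with a mean of 0.95 ± 0.36 (limma adjusted p = 0.19). With the processed signals of the authors, the mean ratio of Pgc was 2.84 with an adjusted p of 0.035 in limma.

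The probes of the pepsinogens are at chromosome 19, 10349538 to 10349671 for Pga5, and chromosome 17, 45870794 to 45870854 for Pgc. The difference between the ratios of the 2 genes was not tested.

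Muc1, the membrane mucin, was measured by 2 probes, at 89357452 to 89357511 and at 89357590 to 89357747 of chromosome 3. The first probe had log2 intensities of 10.37 and 10.36 in CD133-positive cells, against 8.49 and 8.69 in CD133-negative cells. The second had 10.58 and 10.56 in CD133-positive cells, against 7.75 and 7.56 in CD133-negative cells. Both probes separated the fractions on both arrays.

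The first Muc1 probe, which represents the gene in the test over genes, gave a ratio of 3.43-fold with an interval of 2.58 to 4.56 (limma adjusted p = 0.032). The second gave 7.54-fold, and both were called in the fit over probes, with limma adjusted p = 0.03 and 0.014. The probes gave the same direction but differed in size by over 1.5 times. Muc1 was not called against a minimum log2 fold of 0.5 (limma adjusted p = 0.059) or without the filter on dim probes (limma adjusted p = 0.095).

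In Muc6, the gland mucin, the values of the fractions overlapped. How many of all tested genes lack such overlap was not counted, so its absence in other genes of the set is a description. It was absent in the dim and uncalled genes too. The lowest CD133-positive value was 6.21 for Gkn1 and 6.37 for Pgc, and the highest CD133-negative value was 5.90 and 6.20. The Muc6 values lay close together. The log2 intensities of Muc6 were 6.64 and 6.35 in CD133-positive cells, against 6.34 and 6.39 in CD133-negative cells. The mean ratio of 0.13 ± 0.16 had an interval of -0.32 to 0.58 (limma adjusted p = 0.66). Its probe lies on chromosome 7 at 138053787 to 138053846. The raw brightness was 70.8 and 62.3 units in CD133-positive cells, over local backgrounds of 45 and 48, against 91.9 and 90 in CD133-negative cells, over 49 and 52. All 4 values were thus above background but dim.

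**Figure D2:**
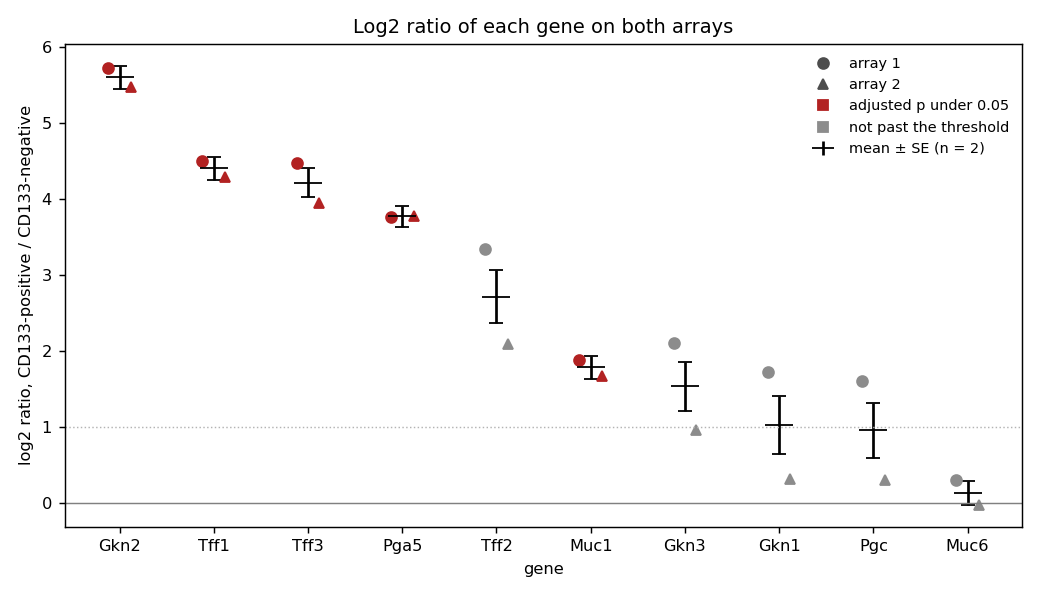
Log2 ratio of CD133-positive over CD133-negative cells (y axis) for the 10 genes (x axis), ordered by mean ratio. Circles are array 1, triangles array 2, bars the mean ± SE (n = 2), red marks a limma adjusted p under 0.05, grey no call, and the dotted line marks 2-fold. Gkn2 is highest at 5.60 and Muc6 lowest at 0.13, and Gkn1, Gkn3 and Pgc reach 2-fold on array 1 but not on array 2.

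Gkn2 thus had the largest and Muc6 the smallest ratio of the set. Neighbours in this order such as Tff1 and Tff3, at 4.40 ± 0.15 and 4.21 ± 0.19, did not differ beyond their SE. The ratios of Gkn1 and Pgc, at 1.02 ± 0.38 and 0.95 ± 0.36, also lay within their SE. Of the 10 genes, 9 had a lower ratio on array 2 than on array 1, which 56.7% of all tested genes also had. The exception was Pga5. With the processed signals of the authors, Tff3 was at 4.58 on array 1 and 4.71 on array 2, and Tff2 at 3.87 and 3.83. Lower ratios on array 2 remained there for Gkn1 (4.92 and 3.51), Gkn3 (2.99 and 1.88) and Pgc (3.25 and 2.43).

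**Figure D3:**
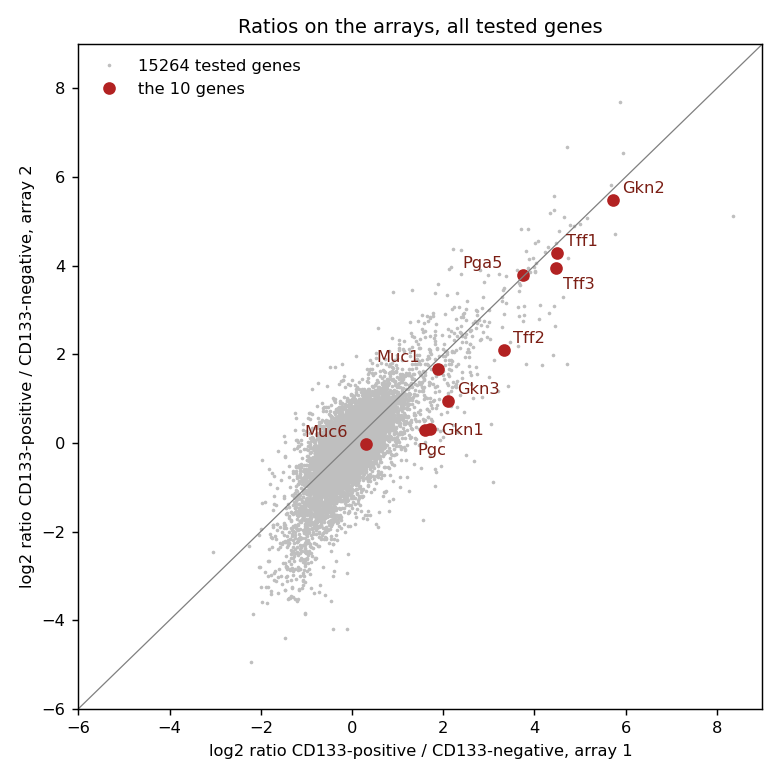
Log2 ratio of CD133-positive over CD133-negative cells on array 1 (x axis) and array 2 (y axis) for the 15264 tested genes (grey) and the 10 genes (red), with the line of equal ratios. Tff1, Tff3, Gkn2, Pga5 and Muc1 lie near the line, while Gkn1, Gkn3, Pgc and Tff2 lie below it.

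The level of several genes also differed between the arrays within a fraction. In CD133-positive cells, the level of 7 of the 10 was lower on array 2 than on array 1 by a factor of 2 or more, which 2.18% of all tested genes were. These were Gkn1, Gkn2, Gkn3, Tff1, Tff2, Tff3 and Pgc. In CD133-negative cells, Tff1 and Tff3 were lower on array 2 as well. The difference was -2.06 in CD133-positive and -1.85 in CD133-negative cells for Tff1 on the log2 scale, and -2.60 and -2.08 for Tff3. Such a difference of at least 2-fold in both fractions was found in 0.164% of all tested genes. This pattern was noticed after the values were seen, and its source was not tested. Muc1, Muc6 and Pga5 differed between arrays by 0.29 or less in size in both fractions. A shift of equal size in both fractions cancels in the ratio within an array, apart from the effect of the offset, which draws ratios of dim probes towards 0.

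**Figure D4:**
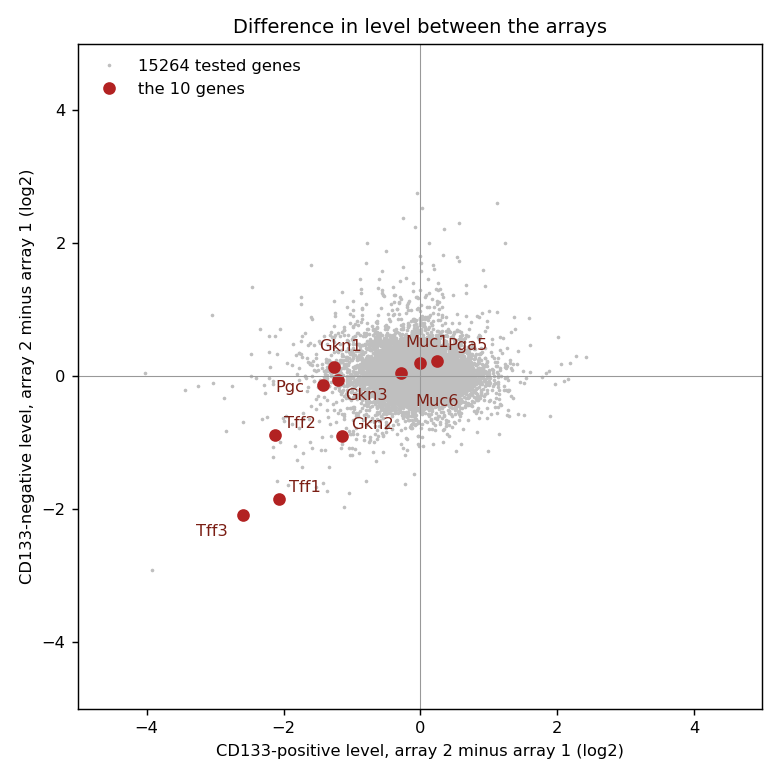
Difference in normalised log2 intensity between array 2 and array 1 for CD133-positive cells (x axis) and CD133-negative cells (y axis), for all tested genes (grey) and the 10 genes (red). Tff3, at -2.60 and -2.08, and Tff1, at -2.06 and -1.85, lie in the lower left, away from most genes.

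Gene families and cell types related to these genes were described from 16 lists, chosen with earlier results of these data known. Outside the 10 genes, the lists held 155 genes, of which 91 could be tested. Of these, 10 rose and 0 fell in CD133-positive cells, against 1.40% of all genes that were called higher. At an unadjusted p under 0.05, 29 were higher and 14 were lower. Of all tested genes, 27.9% passed this threshold, and 11.9% passed it as higher. Without the filter on dim probes, 1 list gene was called, Sult1c2.

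Among other mucins, 1 of 6 tested genes rose. Muc5b, a gel-forming mucin, had ratios of 2.45 and 2.93 and rose by 2.69 ± 0.18 on the log2 scale (limma adjusted p = 0.024), or 4.16 with the processed signals of the authors. Muc3, a membrane mucin, had 2.32 on array 1 and 0.25 on array 2 and did not pass. Muc2, the goblet cell mucin, was well above background only in CD133-negative cells, on at least 1 array, and was not tested. No probe carried the name Muc5ac, the main mucin of surface mucous cells.

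Of the other pepsin-family proteases, 1 of 6 tested rose. Bace2, a membrane aspartic protease, rose by 2.81 ± 0.14 (limma adjusted p = 0.016), with 2.73 and 2.88 on the arrays. Cym, the chymosin gene, was at 1.82 ± 0.21 and did not pass (limma adjusted p = 0.056). Napsa was at -0.73 and Bace1 at -0.45, without a call, and the median of this list was -0.17. Of the other BRICHOS-domain genes, 1 of 3 tested rose: Itm2a, a membrane protein, by 2.42 ± 0.18 (limma adjusted p = 0.028). With the processed signals of the authors it was at 5.93 and was not called.

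Of the genes that pack and glycosylate mucus, 0 of 16 tested were called, and 6 were higher and 1 lower at an unadjusted p under 0.05, a threshold that 27.9% of all tested genes passed. Rab27a, which drives secretory vesicles, was at 1.49 and Xbp1, a regulator of secretory capacity, at 1.31, with limma adjusted p = 0.054 and 0.059. The dimmest Rab27a probe gave 0.24. Among the transcription factors, 1 of 22 tested was called: Spdef, a regulator of mucous secretory cells, which rose by 1.37 ± 0.14 (limma adjusted p = 0.046). It was not called against a minimum log2 fold of 0.5 or with the dimmest probe of each gene (limma adjusted p = 0.055), and its ratio was 3.13 with the processed signals of the authors. Gata6 was at 1.80 and Gata4 at 1.16, with limma adjusted p = 0.059 and 0.07, and the dimmest Gata6 probe gave 0.70. Sox9 was at -1.38 ± 0.36 and did not pass (limma adjusted p = 0.12).

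Of the trefoil partners and reported receptors, 0 of 4 tested were called, and Egfr was at -0.71, or -0.38 by its dimmest probe. Outside the 10 genes, 2 of 8 surface mucous markers rose. These were Sult1c2, a sulfotransferase, by 3.63 ± 0.14 (limma adjusted p = 0.0097), and Anxa10, an annexin, by 2.96 ± 0.22 (limma adjusted p = 0.028). The other tested surface mucous markers were not called. Cym was at 1.82, Cldn18 at 0.79, Vsig1 at 0.04, Ctse at -0.02 and Psca at -0.58, and Gcnt3 was at 1.72 on array 1 and -0.30 on array 2. Of the other neck and gland mucous markers 0 of 3 were called, with Cd44 at -1.13 (-0.30 by its dimmest probe) and Spink4 at 0.96, and of the other chief cell markers 0 of 1. The chief cell genes Cblif, Lipf and Chia1 had no probe well above background, while Pnliprp2 was above it in the CD133-positive fraction alone, on at least 1 array, and was not tested. Of the goblet cell markers outside the set, 0 of 4 were called. Clca1 was at -0.12 on array 1 and -4.20 on array 2, and Zg16 at 3.09 on array 1 and -0.88 on array 2.

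Parietal and endocrine markers gave 0 calls among 3 and 2 tested genes. Kcne2, a potassium channel subunit of parietal cells, was at -0.97 and -2.22 and did not pass (limma adjusted p = 0.097). Atp4a, a subunit of their proton pump, had no probe well above background, while Atp4b, the other subunit, was above it in both fractions on at least 1 array but was not tested. Chga and Gast of endocrine cells had no probe well above background. Of epithelial markers, 1 of 8 tested rose, and 2 were higher and 3 lower at an unadjusted p under 0.05. The called gene was Ocln of tight junctions, by 1.81 ± 0.16 (limma adjusted p = 0.036), although its dimmest probe gave 0.32. Krt8, Krt18, Krt19 and Cdh1, which define epithelial cells, were well above background in both fractions. Krt19 was at -0.79 and Krt18 at -0.54, without a call. Krt7 went the other way, at 1.32, also without a call (limma adjusted p = 0.1). Krt8 was at -0.78, without a call, and at 0.15 with the processed signals of the authors. Epcam, a surface marker of epithelium, was well above background in the CD133-negative fraction alone, on at least 1 array.

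**Figure D5:**
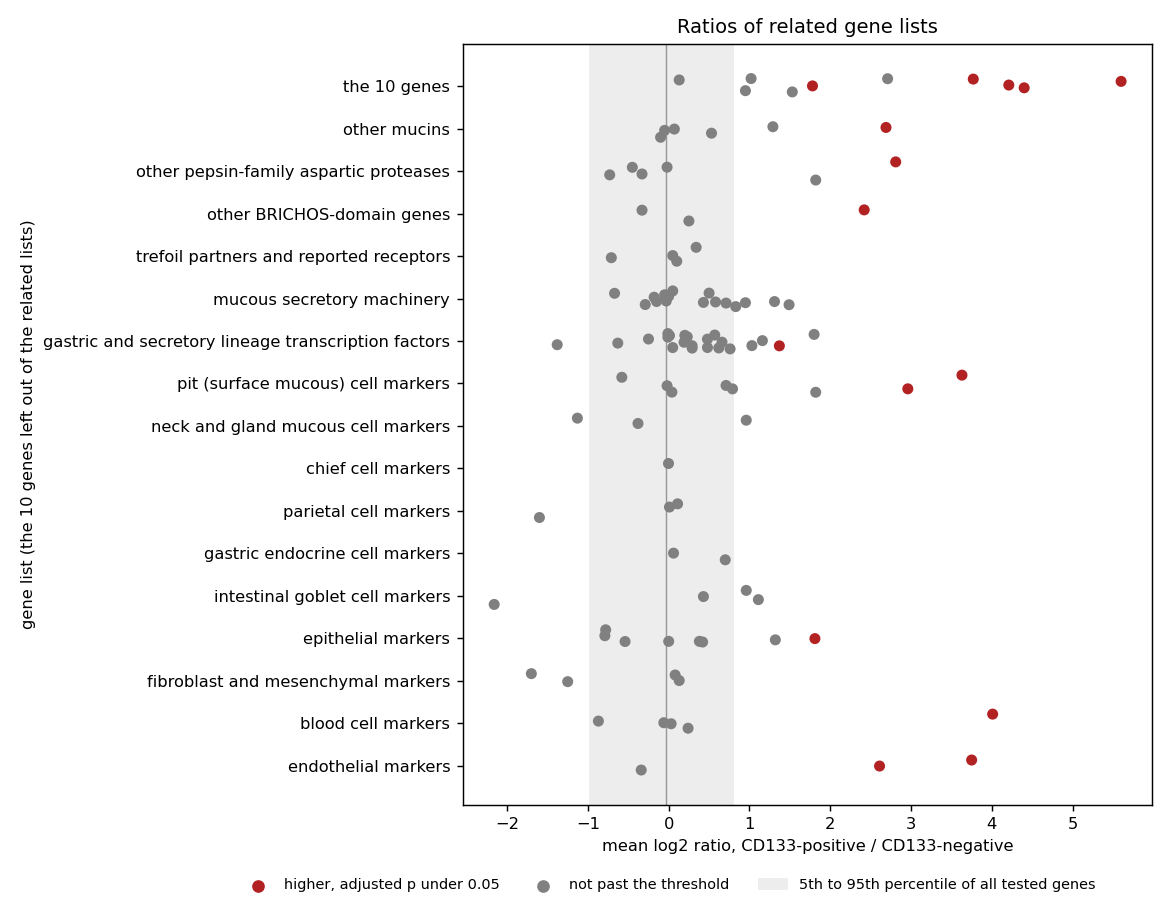
Mean log2 ratio of CD133-positive over CD133-negative cells (x axis) for each tested gene of the 10 genes and of 16 related lists (y axis), with red for genes called higher by limma and grey for the others. Shading spans the central 90% of all tested genes (-0.98 to 0.80), and the line marks their median. Of the 10 genes, 5 are red, and lists differ in how many of their members are.

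Markers of other cell types were measured beside these genes. Of the endothelial list, 2 of 3 tested genes rose: Vwf by 3.75 ± 0.15 (limma adjusted p = 0.012) and Cdh5 by 2.61 ± 0.25 (limma adjusted p = 0.042), a gene at background in the CD133-negative fraction and at 1.23, with no call, by its dimmest probe. Eng, the other tested gene, was at -0.34 without a call and was well above background in the CD133-negative fraction alone. The summed linear intensity of the endothelial list, genes at background included, was 2045 and 2800 in CD133-positive cells, against 522 and 558 in CD133-negative cells. Pecam1, Kdr, Tek and Emcn, which define endothelial cells, had no probe well above background. Of the blood list, 1 of 5 tested genes rose, the receptor gene Kit, by 4.01 ± 0.15 (limma adjusted p = 0.0095), and its sum was 5903 and 5992 in CD133-positive cells, against 1110 and 991 in CD133-negative cells. Ptprc, the gene of the common leukocyte antigen, had no probe well above background. Of the fibroblast list, 0 of 4 tested genes were called, with Vim at -1.70, Col1a1 at -1.25 (-0.21 by its dimmest probe) and Col1a2 at 0.08. Acta2 was at 0.13, but at -0.93 and -0.28 with median centring over all and over tested probes. Col3a1 was above background in both fractions on at least 1 array and was not tested, and Pdgfra, Pdgfrb, Dcn and Lum had no probe well above background. Its sum was 28919 and 23566 in CD133-positive cells, against 53798 and 73763 in CD133-negative cells. Since these are bulk samples, fewer cells of a type and less RNA per cell cannot be told apart, and the part of these cell types in the ratios was not tested.

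Genes that lie beside the set were described by their order in the RefSeq table. Near the gastrokines, Antxr1, an anthrax toxin receptor, rose by 1.52 ± 0.14 (limma adjusted p = 0.038), though not against a minimum log2 fold of 0.5, and the gene order is Antxr1, Gkn1, Gkn2 and Gkn3. On the other side, Prokr1 was at 0.93 ± 0.15 and did not pass, and Bmp10 and Arhgap25 were not well above background. Next to the trefoil genes, Glp1r, Umodl1, Abcg1, Ubash3a and Rsph1 were not well above background in either fraction. Tmprss3 was well above background in each fraction on at least 1 array and was not tested. Beside Pga5, no tested neighbour was called. Vps37c was at 1.13 ± 0.14 (limma adjusted p = 0.059), and at 0.33 by its dimmest probe, while Ddb1 was at -0.64, Tkfc at -0.41 and the others between -0.35 and 0.04. The tested genes beside Muc1 and Pgc had ratios between -0.44 and 0.32, and none was called. Near Muc6, Muc5b rose by 2.69 (limma adjusted p = 0.024), and the other tested neighbours were between -0.47 and 0.58 without a call.

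By the distance between log2 ratios on both arrays, the genes most like Tff3 were Apoa1, Tff1 and Cyp2d26, at distances of 0.04, 0.35 and 0.35. Those most like Gkn2 were Krt23, 0610040J01Rik and Reg3g, at 0.34, 0.69 and 0.76. Those most like Tff1 were Adh1, Nepn and Cyp2d26, at 0.22, 0.24 and 0.26. The nearest to Pga5 were Zfp422, Prom1 and Ihh, at 0.05, 0.08 and 0.16. The nearest to Muc1 were 9130230L23Rik, Lrrc66 and Atp2c2, at 0.02, 0.06 and 0.09. With 2 arrays, such likeness is a description. Prom1, the gene of the sorted marker, passed the filter only through the CD133-positive fraction, since neither of its probes was flagged above background in the other. On the log2 scale the fractions differed by at least 3.58 by the probe that represents the gene, and by at least 3.02 by the other probe. The mean ratio of the first probe was 3.78 ± 0.14 (limma adjusted p = 0.0095). The sort itself sets these values.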

How the data were processed

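Total RNA of sorted fractions was read on 2 Agilent arrays. Spot and background brightness are intensity values of the deposited scanner files, which per the file headers came from Agilent Feature Extraction 9.5.3.1. The same files hold processed signals and log10 ratios of red over green by the authors, and flags for spots well above background, also per the file headers. A deposited p-value per spot was not used. Each array had 45018 spots, of which 23498 to 25213 per channel were well above background, and the number of arrays limits the precision.

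Intensities were corrected by normexp with an offset of 50, which draws ratios of dim probes towards 0, and normalised by loess. Levels per channel were quantile-normalised between arrays on the mean intensity. Ratios were turned to CD133-positive over CD133-negative. A probe was tested if well above background in 1 channel on both arrays with no outlier flag, and a gene was its brightest tested probe. Of the probes, 22951 were named by accession, 9768 by symbol or synonym and 8455 as filed, from a RefSeq table (GRCm38.p6). limma 3.58.1 in R 4.3.3 gave two-sided tests with Benjamini-Hochberg adjustment over 15264 genes at 0.05, with 1 residual and 2.87 prior degrees of freedom. The code was tested on simulated data. Genes were named by rule: every member, called list genes and up to 4 others per list, the 3 genes nearest to each called member, and Prom1. Neighbouring genes were added. The members and lists were chosen with earlier results of these data known. Settings tried are given in the closing section.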

Additional observations from a re-analysis of the deposited data

How the results depend on the processing

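All 10 genes kept the sign of their mean ratio under all 14 other settings in which they were tested, and Gkn2, Tff1 and Pga5 lost their call only without moderation. Genes called in all, 256 with 214 higher, were 412 without background correction, 562 with 404 higher at an offset of 16, 486 with 392 higher for the processed signals and the value table, and 10107 with 484 higher for median centring over all probes. They were 4051 with 1981 higher for median centring over tested probes, 758 with 423 higher after scaling between arrays, 29 with 29 higher without a filter on dim probes, 156 for the dimmest probe, 837 with 501 higher with an intensity trend, 134 with 130 higher against a minimum fold, and 0 with 0 higher without moderation, where 1506 had an unadjusted p under 0.05. The share of calls that were higher, 83.6%, was 70.4% without background correction, 71.9% at the offset of 16, 4.79% and 48.9% with the median centrings, and 55.8% after scaling. Of the 10 genes, 8 were called with the processed signals and the value table, 8 and 10 with median centring over all and over tested probes, 3 without the filter and 0 without moderation. Of the list genes, 16, 49, 45, 19, 1, 18 and 0 were called at the offset of 16, the 2 median centrings, scaling, no filter, the trend and no moderation, against 10. Median centring over all probes put the median of all genes at -0.70 and -0.76. Leaving out each array in turn left 6 to 9 of the 10 genes at least 2-fold higher and 9 to 10 above 0. The cause of these differences was not tested. The test on ratios already pairs the fractions of an array. No further paired analysis was possible because the arrays form 1 group of ratios. Krt8 was at 0.15 with the processed signals and with the value table, and Acta2 at -0.93 and -0.28 with the median centrings. With 2 arrays, dim probes such as Gkn1, Pgc and Muc6 limit what can be seen.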

Other observations

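Among the 25 genes whose level was at least 2-fold lower on array 2 in both fractions, 2210407C18Rik had the largest difference, at -3.92 in CD133-positive and -2.91 in CD133-negative cells on the log2 scale, followed by Tff3 and Tff1. The list also held the goblet cell gene Spink4, at -1.46 and -1.11, the apolipoprotein gene Apoa1, at -1.72 and -1.15, and the haemopexin gene Hpx, at -1.93 and -1.64. The sulfotransferase gene Sult1a1 was at -2.10 and -1.58, and the notch target Hes1 at -1.03 and -1.18. These values were looked at after the levels of the trefoil genes had been seen.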
